A study of Mus musculus with 12 samples.

Results

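The calcium/calmodulin-dependent kinases described here were the 9 genes *Camk2a*, *Camk2b*, *Camk2d*, *Camk2g*, *Camk4*, *Camk1*, *Camk1d*, *Camkk1* and *Camkk2*, chosen by gene name out of 17744 genes with an m6A peak in at least 1 genotype. They carried 19 of the 33622 peaks listed for wild-type (WT) hippocampus and 16 of the 34935 peaks listed for *Tyrobp*-/- hippocampus. Every kinase except *Camk1* had a peak in WT mice, and all 9 had a peak in *Tyrobp*-/- mice. Of the 17744 genes, 15781 had a peak in WT and 16146 in *Tyrobp*-/- mice, so most genes were listed in both genotypes.

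The peaks came from MeRIP-seq, in which RNA fragments bound by an antibody against N6-methyladenosine (m6A) are sequenced (IP library) next to the unselected fragments (input library). Hippocampi of male C57BL/6 mice aged 6 months were compared between WT littermates and *Tyrobp*-/- mice (labelled Tyrobp KO), a constitutive line in which TALEN editing removed a short stretch of an early *Tyrobp* exon. Each genotype had 3 samples, and every sample pooled the RNA of 3 hippocampi and gave 1 IP and 1 input library. The authors called peaks over the 3 samples of a genotype together, so each peak has 1 fold enrichment (IP over input) for each genotype, with no spread between samples, and differences between genotypes were not tested here. The authors' own comparison of the genotypes was deposited, and its statistics were not used. The number of reads behind a single peak is unknown, and a gene without a listed peak is one where no peak was called, which does not show that its mRNA lacked m6A.

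Calcium entering a neuron binds calmodulin, and calcium-loaded calmodulin switches on these kinases. CaMKII, built from the products of *Camk2a*, *Camk2b*, *Camk2d* and *Camk2g*, is abundant at excitatory synapses and is known for its part in long-term potentiation and memory. CaMKI and CaMKIV act in a cascade under the kinase kinases CAMKK1 and CAMKK2, with CaMKIV acting in the nucleus on transcription factors such as CREB. In mammalian mRNA, m6A is written by the METTL3 and METTL14 complex, lies mostly near stop codons and in 3′ UTRs, and affects how long an mRNA lasts and how well it is translated.

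The m6A peaks of the kinases lay mainly in 3′ UTRs. The authors' annotation placed 14 of the 19 WT peaks (73.7%) and 13 of the 16 *Tyrobp*-/- peaks (81.2%) there, against 47.2% and 49.3% of all peaks in the respective lists. Of the other classes, 5′ UTRs held 3 kinase peaks in WT and 1 in *Tyrobp*-/- mice, and first exons held 0 in both. Other exons held 2 in each genotype, including a *Tyrobp*-/- peak listed for *Camk2d* whose annotation names an exon of another gene identifier. Peaks of 1 gene share its RNA and libraries, so these shares are descriptions of 9 genes and were not tested.

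The median fold enrichment of the kinase peaks was 4.88 in WT mice, with a range of 1.37 to 19.5, and 5.11 in *Tyrobp*-/- mice, with a range of 1.47 to 13.2. Over all peaks the medians were 5.54 and 5.72. Peak-calling FDRs were listed as 0, the smallest value the files hold, for 7 kinase peaks in each genotype, or 36.8% and 43.8%, against 11.5% and 10.2% of all peaks. An FDR of at least 0.05 was listed for 1 of the 19 WT peaks, in the 5′ region of *Camk4*, and for 0 of the 16 *Tyrobp*-/- peaks, against 10.3% and 11.0% of all peaks, counts too small to set the kinases apart. In number of peaks the kinases were ordinary, with 0 to 3 peaks per gene in WT mice and 1 to 3 in *Tyrobp*-/- mice. The median was 2 in each list, taken over the genes with at least 1 peak in that list.

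**Figure D1:**
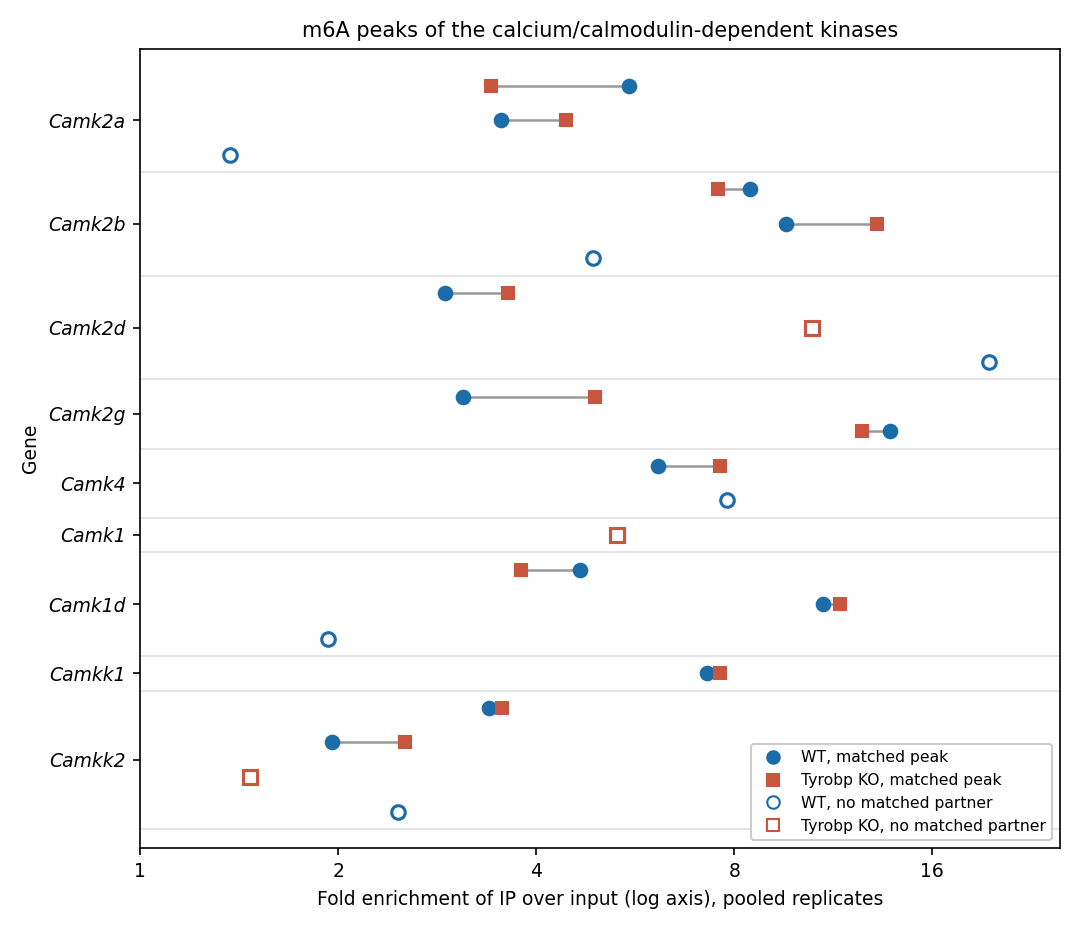
Fold enrichment of IP over input (log axis) for every m6A peak of the 9 kinases, by gene, with WT peaks as blue circles and Tyrobp KO peaks as red squares. Lines join the 13 matched pairs, open symbols are peaks without a matched partner, and the open symbols span 1.37 in *Camk2a* to 19.5 in *Camk2d*, both in WT mice.

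*Camk2a* (ENSMUSG00000024617) encodes the α subunit of CaMKII, whose mRNA is carried into dendrites through its 3′ UTR. It lies on the forward strand of chromosome 18 (GRCm38) and had 3 peaks in WT and 2 in *Tyrobp*-/- mice. The peak at chr18:60984543-60985694 in WT mice was at a fold enrichment of 5.54 over 930 exonic bases, and its partner at chr18:60985035-60985634 in *Tyrobp*-/- mice was at 3.42 over 600 exonic bases, a ratio of 0.617 and the largest difference toward WT among the kinases.

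A second 3′ UTR peak of *Camk2a*, chr18:60987912-60988152 in WT mice, reached the last base of the annotated transcript in both genotypes. It was at 3.54 in WT and 4.44 in *Tyrobp*-/- mice, so the 2 peaks of this gene differed in opposite directions. The stronger of the pair in WT mice was the internal one, by a ratio of 1.56, and in *Tyrobp*-/- mice it was the terminal one, by a ratio of 1.30. A further peak of 61 bases, 30 bases from the transcript start, was listed in WT mice only, at a fold enrichment of 1.37, which is higher than 0.854% of all WT peaks.

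*Camk2b* (ENSMUSG00000057897), which encodes the β subunit that tethers CaMKII to actin, lies on the reverse strand of chromosome 11. Its 3′ UTR peak reached the last base of the annotated transcript in both genotypes. It covered 1497 bases at a fold enrichment of 8.46 in WT mice and 1048 bases at 7.56 in *Tyrobp*-/- mice. This terminal peak was thus shorter at its upstream side in *Tyrobp*-/- mice, while its enrichment ratio was 0.894.

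Farther inside the gene, an exon that the annotation gives as the last of 3 in another *Camk2b* transcript carried a strong peak in both genotypes. In WT mice it was split into a peak at chr11:6014101-6014550 with a fold enrichment of 9.60 and one at chr11:6014969-6015148 with 4.88. *Tyrobp*-/- mice had 1 peak of 1048 bases over both, at chr11:6014042-6015089, with a fold enrichment of 13.2 and an FDR of 1.26e-20. Against the larger WT peak the ratio was 1.38, between peaks of 450 and 1048 bases.

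*Camk2d* (ENSMUSG00000053819) encodes the δ subunit, the main CaMKII subunit of heart that brain also expresses. Its only peak shared by the genotypes lay in the 3′ UTR on chromosome 3, at 126842817 to 126843237 in WT and 30 bases downstream in *Tyrobp*-/- mice, with 421 bases in each. It was at a fold enrichment of 2.91 in WT and 3.63 in *Tyrobp*-/- mice, a ratio of 1.25.

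The strongest peak of any kinase was also in *Camk2d* and was listed in WT mice only. It covered chr3:126816385-126816715, 28198 bases before the end of the annotated transcript and yet assigned to a 3′ UTR, with a fold enrichment of 19.5, higher than 95.4% of all WT peaks, and an FDR of 7.08e-05. In *Tyrobp*-/- mice a different peak was listed for this gene alone, at chr3:126667329-126667626, with a fold enrichment of 10.5 and an FDR of 0.0174. That peak begins at the first base of *Gm15551*, a long noncoding RNA gene inside *Camk2d* (126667329 to 126668943 in RefSeq), and the authors' annotation names an exon of another gene identifier than *Camk2d* for it, so its assignment to *Camk2d* is uncertain.

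*Camk2g* (ENSMUSG00000021820) encodes the γ subunit, which has been described as a shuttle of calmodulin to the nucleus. Its main peak on the reverse strand of chromosome 14 was among the strongest of the kinases in both genotypes, with a fold enrichment of 13.8 over 958 exonic bases in WT and 12.5 over 1018 bases in *Tyrobp*-/- mice. A weaker peak at the last base of the annotated transcript, chr14:20734875-20735114 in WT mice, was at 3.10 and had a partner at 4.91 in *Tyrobp*-/- mice. The ratio of 1.58 at this terminal peak was the largest in favour of *Tyrobp*-/- mice among the 13 matched pairs, and higher than 86.4% of all matched pairs.

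*Camk4* (ENSMUSG00000038128), on the forward strand of chromosome 18, encodes the nuclear kinase CaMKIV. Its 3′ UTR peak ended at base 33185367 in both genotypes, 5861 bases before the transcript end, and was at a fold enrichment of 6.12 in WT and 7.62 in *Tyrobp*-/- mice. The WT peak held an additional upstream block of 81 bases. A further WT peak was annotated to the 5′ UTR at 7.81, with an FDR of 0.162, and spanned 22603 bases in 3 blocks. Of these blocks 1 lay in *Camk4*, 1 in the long noncoding RNA gene *2310026I22Rik* and 1 in no RefSeq gene, so this peak is not clearly a *Camk4* peak.

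*Camk1* (ENSMUSG00000030272), the gene of CaMKI on the reverse strand of chromosome 6, had 0 peaks in WT mice and 1 in *Tyrobp*-/- mice. The peak ran from the annotated transcript start across an intron, in blocks of 149 and 121 bases (chr6:113341862-113343984), with a fold enrichment of 5.31, near the middle of the *Tyrobp*-/- list (higher than 47.4% of its peaks), and an FDR of 3.16e-16. It was the only *Tyrobp*-/- kinase peak in a 5′ UTR.

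The first 112 bases of this *Camk1* peak lie in the RefSeq promoter window of the gene (GRCm38.p6), and the stretch of them that holds consensus letters for m6A is shown because it is the only kinase peak for which a reference sequence was at hand. Capitals mark the matches in the 30 bases at chr6:113343911-113343940 on the reverse strand, written 5′ to 3′. These bases lie near the peak's first base (113343984) and do not begin at it. RefSeq places the start of *Camk1* at 113343922, so part of them lies upstream of the gene in that annotation.
*Camk1* peak start: agcgccagcgactgagcaggcAAACTGACC
The letters searched were AAAC or AGAC or GAAC or GGAC or TAAC or TGAC followed by A, C or T, which makes 18 sequences of 5 bases. On the sense strand 2 matches were found, which share 1 base, and on the other strand 0. At least 1 sense match is held by 80.1% of all 32851 promoter windows over the same last 112 bases, and at least 2 by 52.3%, so these letters are common and do not locate a methylated base.

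*Camk1d* (ENSMUSG00000039145), on the reverse strand of chromosome 2, encodes the δ isoform of CaMKI. Its peak at chr2:5294445-5294864 had identical borders in both genotypes and was at a fold enrichment of 4.66 in WT and 3.79 in *Tyrobp*-/- mice. The stronger peak, 5120 bases from the transcript end, was at 10.9 in WT and 11.6 in *Tyrobp*-/- mice, and the WT peak held a further block of 45 bases upstream. Between these lay a WT peak of 211 bases at 1.93 that had no partner in *Tyrobp*-/- mice.

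*Camkk1* (ENSMUSG00000020785) and *Camkk2* (ENSMUSG00000029471) encode the upstream kinases of CaMKI and CaMKIV, and CAMKK2 also phosphorylates AMPK. *Camkk1*, on the forward strand of chromosome 11, had a single wide 3′ UTR peak in each genotype, chr11:73040284-73041536 in WT mice, at 7.28 over 1253 bases in WT and 7.62 over 1134 bases in *Tyrobp*-/- mice. With a log2 ratio of 0.07 this pair was among the 3 closest to equal.

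*Camkk2* had the weakest leading peak of any kinase in both genotypes. Its 3′ UTR peak at the end of the annotated transcript, chr5:122731170-122731439 on the reverse strand in WT mice, was at 3.39 in WT and 3.55 in *Tyrobp*-/- mice. That end lies inside the RefSeq gene, which reaches 122718380. The internal peak, chr5:122733593-122734012 in WT mice, was at 1.96 and 2.53. A peak of 61 bases at 1.47 beside the internal one was listed in *Tyrobp*-/- mice only. In WT mice only, a peak of 2 blocks annotated to a 5′ UTR was at 2.47 with an FDR of 0.000148, 9421 bases from the annotated transcript start.

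**Figure D2:**
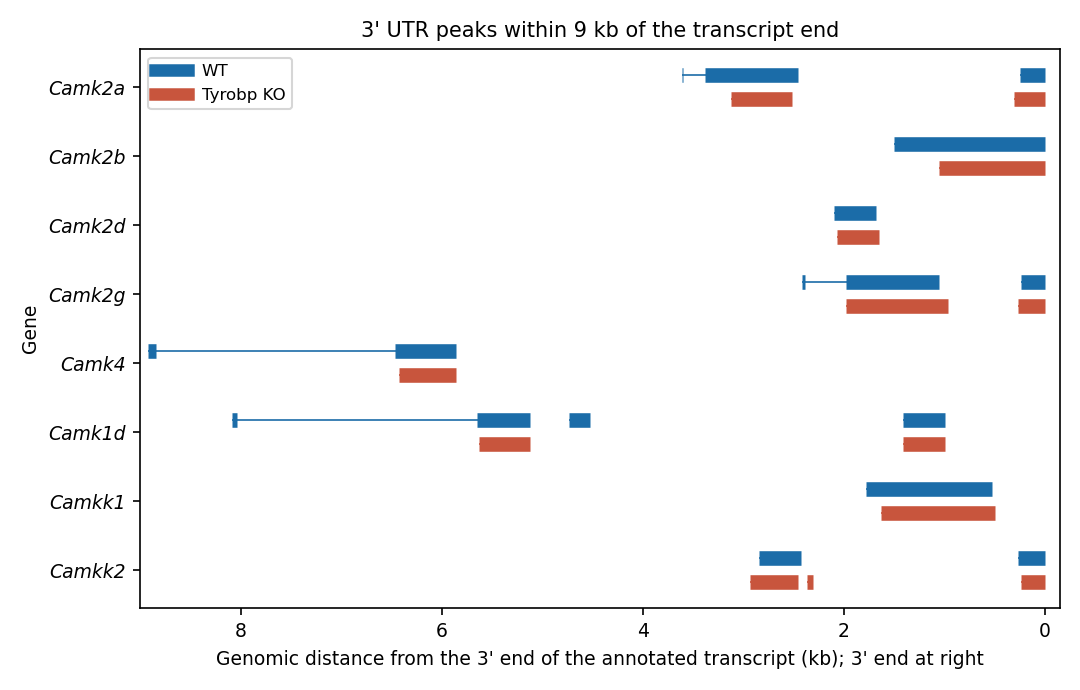
Position of the 3′ UTR peaks of 8 kinases as genomic distance in kb from the 3′ end of the annotated transcript, with WT bars in blue above Tyrobp KO bars in red. Thick bars are exonic blocks and thin lines the introns between them. Peaks of *Camk2a*, *Camk2b*, *Camk2g* and *Camkk2* touch the transcript end in both genotypes, and the WT peak of *Camk2d* 28198 bases from the end lies outside the plot.

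Seen along the transcripts, 4 kinases (*Camk2a*, *Camk2b*, *Camk2g* and *Camkk2*) had a peak that reached the last base of the annotated transcript, and did so in both genotypes. These were 28.6% of the 14 WT and 30.8% of the 13 *Tyrobp*-/- peaks in 3′ UTRs, against 18.8% and 22.4% of all 3′ UTR peaks. The end is that of the 1 transcript the annotation gives for a peak. For *Camkk2* it lies at base 122731170, well inside the RefSeq gene, which reaches 122718380. The remaining 3′ UTR peaks of the kinases lay farther inside their transcripts. Over all 14 WT and 13 *Tyrobp*-/- peaks in 3′ UTRs, those at the end included, the median distance to the transcript end was 1361.5 and 988 bases. Over the 3′ UTR peaks of all genes it was 618 and 530 bases. Peaks made of several blocks, which cross an exon border, numbered 6 of 19 in WT and 1 of 16 in *Tyrobp*-/- mice, against 28.9% and 26.5% of all peaks. In the 4 matched WT peaks of that kind (*Camk2a*, *Camk2g*, *Camk4* and *Camk1d*), the additional block held 12, 27, 81 and 45 bases, and the *Tyrobp*-/- partner was a single block.

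Most kinase peaks were found in both genotypes. An overlap with the other list was found for 14 of 19 kinase peaks in WT mice, against 78.0% of the whole WT list. In *Tyrobp*-/- mice it was found for 13 of 16, against 75.8% of the whole list. The 5 WT peaks without an overlap were in *Camk2a*, *Camk2d*, *Camk4*, *Camk1d* and *Camkk2*, and the 3 of *Tyrobp*-/- mice were in *Camk2d*, *Camk1* and *Camkk2*. Apart from the *Camk2d* and *Camk4* peaks, the WT ones were weak, between 1.37 and 2.47. Those of *Tyrobp*-/- mice were at 10.5 in *Camk2d*, 5.31 in *Camk1* and 1.47 in *Camkk2*. The *Camk2d* peak among them had an FDR of 0.0174 and is of uncertain assignment. Over all peaks without an overlap the median was 4.64 in WT and 4.45 in *Tyrobp*-/- mice. Absence from a list says only that no peak was called there, and these differences were not tested here.

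At the 13 pairs matched by mutual best overlap, enrichment differed by less than 2-fold between the genotypes. It was higher in *Tyrobp*-/- mice at 9 pairs (69.2%, against 53.6% of all matched pairs) and lower at 4, with log2 ratios (*Tyrobp*-/- over WT) between -0.70 and 0.66 and a median of 0.09. All 23142 matched pairs of the lists had a median of 0.05, with quartiles of -0.29 and 0.39. A difference of at least 2-fold was reached by 0 of the 13 pairs in either direction, while among all matched pairs 7.13% were at least 2-fold higher and 6.26% at least 2-fold lower in *Tyrobp*-/- mice.

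At 1.5-fold, 1 pair was higher (*Camk2g*, terminal peak) and 1 lower (*Camk2a*, internal peak) in *Tyrobp*-/- mice, against a background of 16.2% and 13.4% of all matched pairs. Neither value has a replicate error, and at *Camk2a* the *Tyrobp*-/- peak covered fewer exonic bases (600 against 930). The CaMKII genes thus held both ends of the range, and the kinase kinases, *Camk4* and *Camk1d* lay between, from -0.30 for the *Camk1d* peak with identical borders to 0.37 for the internal *Camkk2* peak.

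**Figure D3:**
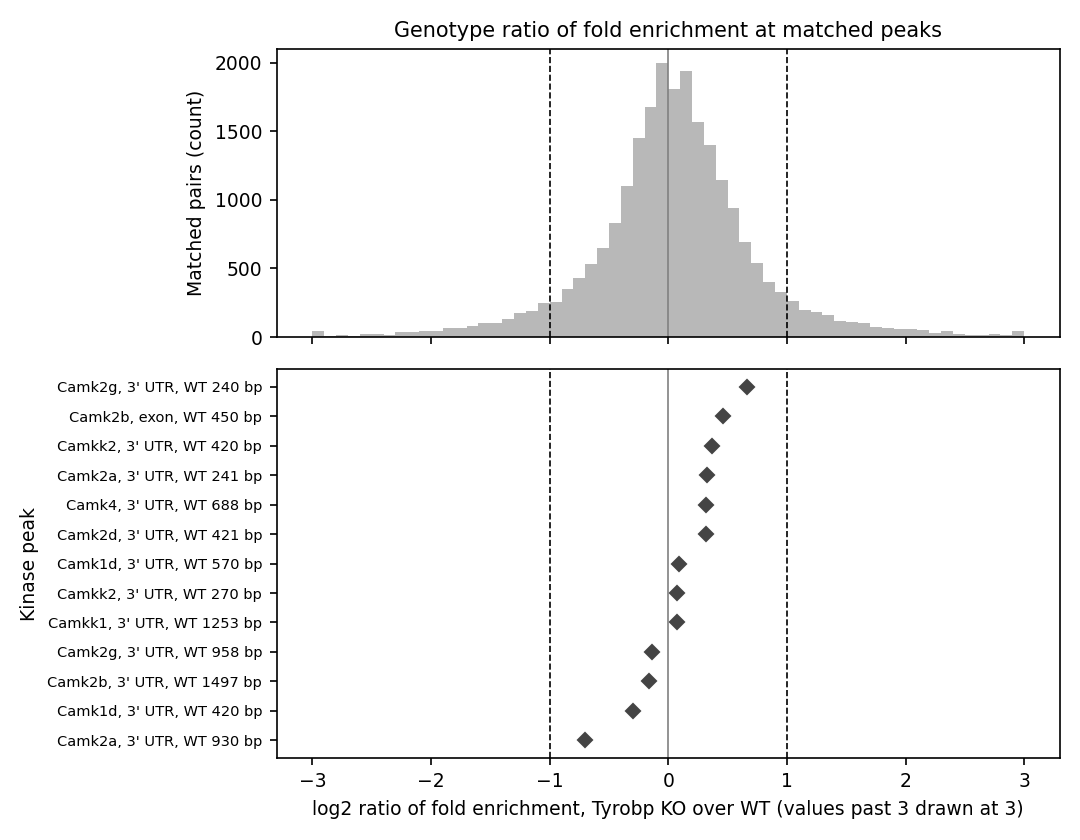
Log2 ratio of fold enrichment, Tyrobp KO over WT, for all 23142 matched peak pairs (upper histogram, counts per bin) and for the 13 kinase pairs (lower panel, 1 diamond per pair, named by gene, place and exonic length of the WT peak). Dashed lines mark 2-fold, and the kinase pairs lie between -0.70 and 0.66, inside both lines.

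Of the 5 kinases with 2 matched pairs each, 4 kept the order of their peaks between genotypes. The stronger peak of *Camk2g* exceeded the weaker by a ratio of 4.45 in WT and 2.55 in *Tyrobp*-/- mice, and that of *Camk1d* by 2.34 and 3.06. In *Camk2b* and *Camkk2* the ratios were 1.13 and 1.73 in WT and 1.75 and 1.40 in *Tyrobp*-/- mice, and *Camk2a* was the exception. Ranked by their strongest peak found in both genotypes, *Camk2g* led in WT mice at 13.8, followed by *Camk1d* at 10.9 and *Camk2b* at 9.60. In *Tyrobp*-/- mice the order was *Camk2b* at 13.2, *Camk2g* at 12.5 and *Camk1d* at 11.6, and without a replicate error the order of these neighbours could not be tested. *Camk2a*, *Camk2d* and *Camkk2* stood lowest in both.

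The authors' own table of peaks compared between the genotypes lists 5640 peaks, of which 2 belong to kinases. Its fold changes and p-values were not used here. One row covers chr3:126816385-126816505 in *Camk2d*, inside the strong WT peak without a partner, and the other chr14:20734875-20735174 in *Camk2g*, the terminal peak with a ratio of 1.58. The remaining 7 kinases have no row, and 26.1% of all genes with a peak have one.

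Genes around the kinases in the calmodulin pathway were read from a list of 24, of which 20 had a peak in WT and 20 in *Tyrobp*-/- mice, 19 in both. They gave 33 matched pairs with a median log2 ratio of 0.20, 20 of them higher and 13 lower in *Tyrobp*-/- mice, and 0 pairs reached 2-fold in either direction. Over all matched pairs the median was 0.05, 53.6% were higher, and 7.13% and 6.26% were at least 2-fold higher and lower.

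The calmodulin genes *Calm2* and *Calm3* had 2 peaks in WT and 3 in *Tyrobp*-/- mice. *Calm2* had 1 peak in each genotype at 4.49 in WT and 4.43 in *Tyrobp*-/- mice, and *Calm3* had a weak 3′ UTR peak at 1.58 and 1.30. *Calm3* had a further peak in *Tyrobp*-/- mice only, at 1.47. *Nrgn* encodes neurogranin, a postsynaptic protein that binds calcium-free calmodulin. It had 2 WT peaks of low fold enrichment, 1.71 and 1.86, both with an FDR listed as 0, and 0 peaks in *Tyrobp*-/- mice. The reverse held for *Ppp3cc* of the same list, with 0 WT peaks and 1 peak in *Tyrobp*-/- mice. That peak was at 9.53 with an FDR of 8.13e-07. Neither difference was tested.

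*Camk2n1*, which encodes an endogenous inhibitor of CaMKII, carried 5 peaks in each genotype, more than any of the kinases. The strongest was at 16.2 in WT and 20.8 in *Tyrobp*-/- mice, and the log2 ratios of its 4 matched pairs lay between -0.31 and 0.36. The related inhibitor gene *Camk2n2* had no listed peak.

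Among the relatives of the kinases, *Camk1g*, the γ isoform of CaMKI, had 2 matched peaks, at 3.11 and 1.52 in WT and at 4.43 and 2.08 in *Tyrobp*-/- mice. *Pnck*, the β isoform, was at 6.04 and 5.73 at its shared 3′ UTR peak. *Camkv*, a CaM kinase-like protein without kinase activity, was at 2.71 and 2.68, and *Dapk1*, a death-associated kinase that calmodulin activates, at 7.17 and 8.83. Of these 5 pairs, 3 were higher in *Tyrobp*-/- mice, with log2 ratios between 0.30 and 0.51. The other 2, in *Pnck* at -0.08 and *Camkv* at -0.02, were close to equal.

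**Figure D4:**
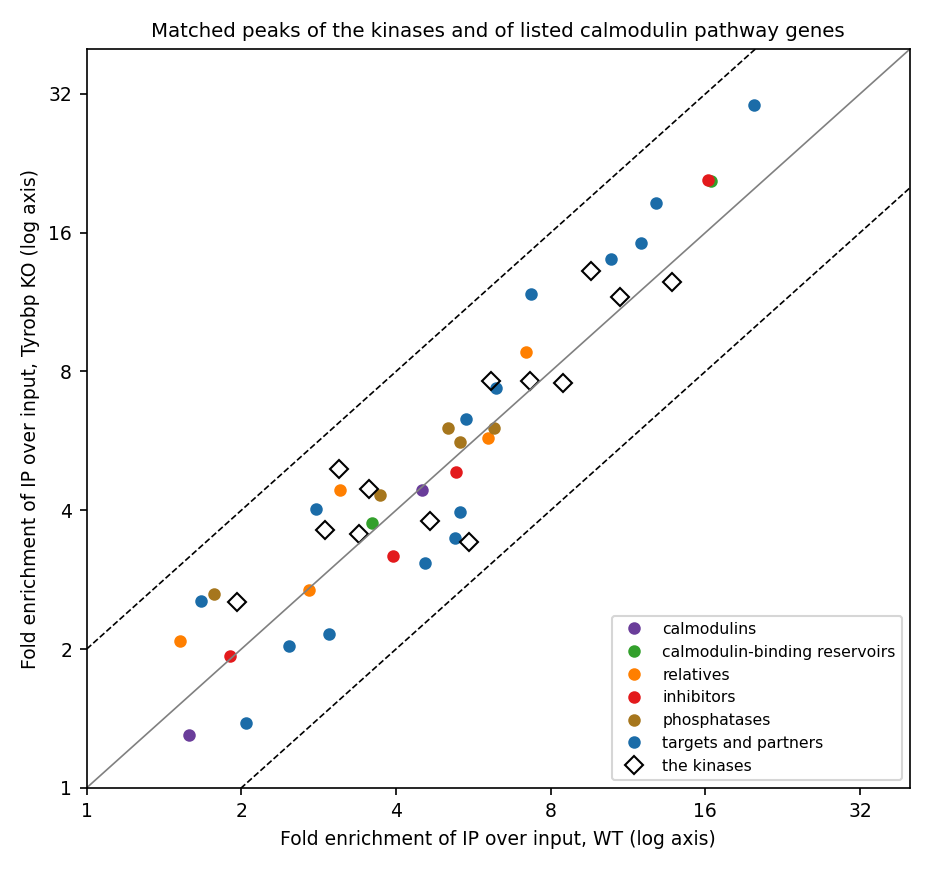
Fold enrichment of IP over input in WT (horizontal, log axis) and Tyrobp KO mice (vertical, log axis) at the 13 matched kinase pairs (open diamonds) and the 33 matched pairs of listed calmodulin pathway genes (coloured by role). The solid line marks equal values and the dashed lines 2-fold, and all 46 points lie between the dashed lines.

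The phosphatases of the list (6 genes, calcineurin subunits and CaMK phosphatases) gave 5 pairs with a median log2 ratio of 0.21, and the targets and partners (7 genes) gave 15 pairs with a median of 0.23. In *Tyrobp*-/- mice 4 of the 5 phosphatase pairs were higher and 1 lower, and 9 of the 15 target and partner pairs were higher and 6 lower. Of these 6, 1 pair overlapped by only 1 base of span and so compares adjacent stretches. Overlap of exonic blocks was examined for the kinase pairs only. No pair of either group reached 2-fold.

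The libraries held between 61189368 and 73554506 valid reads each. The GC content of the IP libraries ranged from 49.16% to 50.24% in WT and from 48.46% to 49.33% in *Tyrobp*-/- mice, and its part in the values above was not tested. Of 7 hippocampal neuron markers, all had a peak in both genotypes, as had all 9 markers of astrocytes, microglia and oligodendrocytes. Of 3 markers of tissues other than brain, 1 (*Myh6*) had a peak in WT and 2 (*Myh6* and *Ins2*) in *Tyrobp*-/- mice, so a listed peak does not by itself show a cell type, and the kinase peaks cannot be assigned to one. *Tyrobp* itself had 0 peaks in either list, which therefore give no check of the knockout.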

How the data were processed

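Per the labels and the methods of the study, the authors trimmed reads with fastp, mapped them with HISAT2 to the mouse genome (given as v96), found enriched stretches with exomePeak, 1 list for each genotype, and annotated them with ChIPseeker. Tool versions are not given in the sources used here. The labels also list HOMER. The deposited peak lists hold the fold enrichment (a ratio of IP over input), the p-value and the log10 FDR, read as a score because it reaches minus infinity. The deposited library table holds read counts and percent GC and Q30 bases per library. The deposited table of the genotype comparison holds log2 fold changes, p-values and FDRs, which were not used. Only its positions and gene names were.

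Kinase peaks were taken by gene name. Peaks overlapping by at least 1 bp of span within a gene name were called shared, mutual best overlaps were called pairs, and the log2 ratio of their fold enrichments was computed. The pairing was tested on simulated, well-separated peaks of a single block with slightly shifted borders. That test did not cover split, merged or multi-block peaks. Positions were compared with RefSeq genes of GRCm38.p6, which overlapped 94.9% of the 31141 WT peaks matched by symbol. Promoter sequences were held for 6 of the 9 kinases, and not for *Camk2a*, *Camk2g* and *Camk4*. Alternatives were a reciprocal overlap of 50%, exonic blocks, a peak-calling FDR below 1e-5, a fold enrichment of at least 4, a 1.5-fold ratio and weighting by exonic length. The genes named are all kinases with every peak, the calmodulins, the kinases' relatives and inhibitors, and any listed gene with a 2-fold pair, of which there was none. Some genes of the pathway list are not reported here and were left out of its counts. *Nrgn*, *Ppp3cc* and the genes next to a kinase peak were named after their values were seen. The kinases and the lists were chosen with earlier results of these data known. Computation ran in Python 3.11.15 (pandas 2.3.3, numpy 2.4.6, scipy 1.17.1), with plots by matplotlib 3.10.9.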

Additional observations from a re-analysis of the deposited data

How the results depend on the processing

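Of 41 recomputed values, 38 moved by less than the limits set (the exact 95% binomial interval of a share, 1.5 times a count and 0.1 on the log2 scale for a median), and 0 reversed. These intervals treat the peaks of a gene as independent and are wide for so few peaks. The count of 0 pairs at 2-fold could not rise where an alternative only removed pairs. The tally is therefore no measure of robustness. At a fold enrichment of at least 4, the kinase peaks numbered 11 in WT and 10 in *Tyrobp*-/- mice. With a ratio of at least 1.5 in place of 2, 2 pairs differed between the genotypes. Under a reciprocal overlap of 50%, 10 pairs were left, and 52.6% of the WT and 62.5% of the *Tyrobp*-/- kinase peaks were shared. The next alternatives were chosen after seeing the data. Without the *Camk2d* and *Camk4* peaks that meet a second gene, 18 and 15 peaks were left, of which 77.8% and 86.7% lay in 3′ UTRs. With ratios centred on the median of all pairs, the median kinase ratio was 0.04. No paired analysis was possible because the authors pooled the replicates of each genotype before calling peaks, and for the same reason no replicate could be left out. Ratios between peaks of unequal length compare unequal stretches of RNA, and no value has a replicate error.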
